A study of Saccharomyces cerevisiae with 8 samples.

Results

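The comparison described here sets open chromatin in yeast strain code 11 at 180 min against the same strain at 0 min, summit by summit. Each deposited list of accessible regions is made of sub-peaks, and each sub-peak has a summit, the base where most reads pile up. A summit of the 0 min list and one of the 180 min list were called matched when each was the other's nearest summit and they lay within 50 bp. The rest were called 0 min only or 180 min only. The code 11 lists held 7093 sub-peaks in 3699 regions at 0 min and 6654 sub-peaks in 3622 regions at 180 min, together 13747 of the 27173 sub-peaks of the series, all on the 16 nuclear chromosomes of Saccharomyces cerevisiae.

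The cells were haploid, of mating type MATa, in the S288c background. Per the labels, 8 samples formed 4 groups of 2 experiments, namely CEN4 at 0 and 180 min, CEN4* at 0 min and cen4- at 180 min. CEN4 is a control with no lox sites at the centromere of chromosome IV, CEN4* has that centromere between lox sites, and cen4- is the state after Cre recombinase has cut it out. The 0 min samples were untreated, and all 180 min samples, controls included, had received beta-estradiol at 1 µM. No label links code 11 to CEN4 or to CEN4*, so the strain is called by its code, and the peaks were not used to infer 1. There is 1 list per code and time with no replicate number, and nothing at hand says whether a list pools both experiments, so no difference was tested. Intervals below are exact Clopper-Pearson 95% intervals and cover counting error only.

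ATAC-seq uses the Tn5 transposase, which inserts adapters where DNA is not wrapped on a nucleosome or otherwise covered. In yeast most genes have a nucleosome-depleted stretch just upstream of their start, where transcription factors and the transcription machinery bind, and this stretch gives the strongest signal. Gene bodies are packed in regular arrays of nucleosomes, and genes that are transcribed very heavily are known to lose part of that packing. Summits were therefore sorted by position into promoter (from 400 bp upstream to 100 bp downstream of an annotated start), gene body, intergenic space between convergent gene ends, other intergenic space and chromosome ends.

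Summit height is given as relative height, the read pileup at the summit divided by the genome-wide background pileup of its list. That background was 601.7 at 0 min and 512.2 at 180 min, so the 0 min list is the deeper one. Scaling the 0 min list down to the depth of the 180 min list would have removed 34 of its summits from the calls. In code 8, the other strain code, the backgrounds were 413.7 and 439.2.

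Most summits of code 11 stood in the same place at both times. Of the 0 min summits 6223 (87.7%, interval 86.9 to 88.5%) had a match at 180 min. Between the members of a pair the median distance was 3 bp, and 5439 pairs (87.4%) lay within 10 bp of each other. Only 34 pairs lay 40 to 50 bp apart, and 15 mutual nearest summits fell just outside the limit, at 50 to 60 bp. This left 870 summits at 0 min only, 12.3% of that list, and 431 at 180 min only, 6.48% of that list. The 0 min list is also the longer one, and with both lists cut to their 6654 strongest summits each had 618 unmatched, numbers that equal length makes the same. In code 8 the same matching left 840 (12.3%) and 590 (8.96%). With chromosome IV left out, the 180 min only share was 6.47% in code 11 and 6.92% in code 8.

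The unmatched summits were the weak ones. At 0 min the median -log10 q deposited by the authors was 15.5 for unmatched and 271 for matched summits, and the median relative height was 1.6 against 3.11. At 180 min the unmatched summits had a median -log10 q of 11.9 and a median relative height of 1.59. Of the 319 summits at 0 min with a -log10 q under 5, 60.8% were unmatched, and of the 2567 with 400 or more, 1.36%. The same bins of the 180 min list went from 38.8% to 1.01%. Rank within a region went with it as well: 5.70% of the strongest summits of their regions at 0 min were unmatched, and 19.4% of the lower ones. At 180 min these shares were 2.62% and 11.1%.

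**Figure D1:**
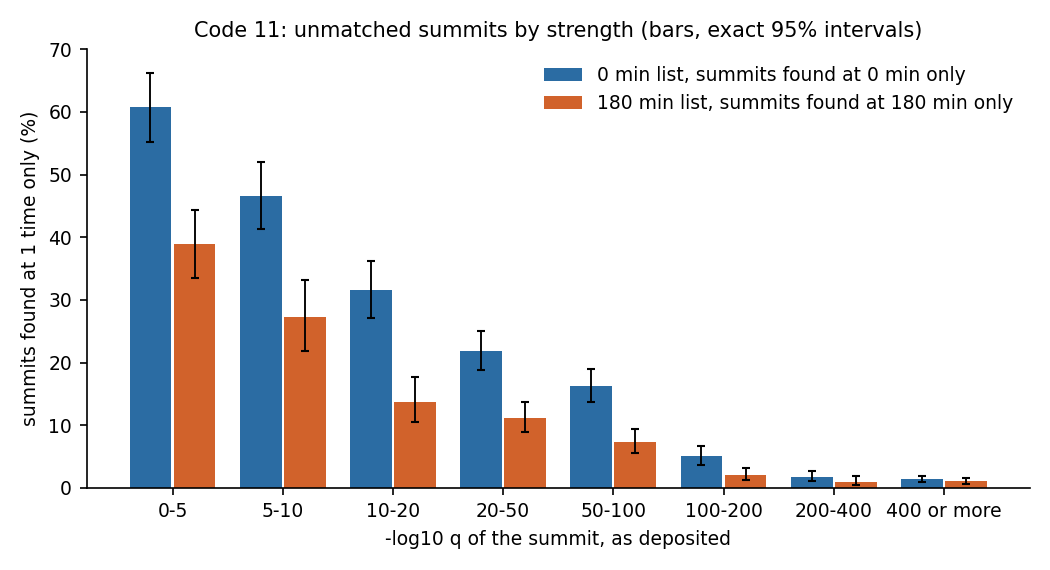
Share of code 11 summits without a match at the other time (vertical axis, percent), by the deposited -log10 q of the summit (horizontal axis), for the 0 min list (blue) and the 180 min list (orange). Bars are shares and whiskers exact 95% intervals. The share went down from 60.8% to 1.36% at 0 min and from 38.8% to 1.01% at 180 min.

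An unmatched summit did not always mean a region that closed. Of the 870 summits at 0 min only, 365 (42%, interval 38.6 to 45.3%) lay inside a region that was still called at 180 min. A further 264 (30.3%) sat on a part of a region that was no longer covered, while another part of the same region was. The remaining 241 (27.7%, 24.7 to 30.8%) belonged to regions absent from the 180 min list altogether. Of the 431 summits at 180 min only, 231 (53.6%) lay inside a 0 min region, 101 (23.4%) on a newly covered part and 99 (23.0%) in new regions. Unmatched summits inside a region had their nearest neighbour in the other list at a median of 200 bp in both directions. Adjacent summits of 1 region were spaced at a median of 247 bp at 0 min and 249 bp at 180 min. Every unmatched summit stronger than the median -log10 q of its list, 52 at 0 min and 32 at 180 min, lay inside a region of the other list.

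The share of summits without a match was highest in gene bodies, although promoters, with more summits, held 46.0% of the 870 and gene bodies 41.6%. At 0 min only were 362 of 1516 gene-body summits (23.9%, interval 21.8 to 26.1%), against 400 of 4524 promoter summits (8.84%, 8.03 to 9.71%). Summits between convergent gene ends stood near the gene bodies, with 27 of 141 (19.1%, 13.0 to 26.6%), and other intergenic summits near the promoters, with 81 of 875 (9.26%). At chromosome ends 0 of 37 summits were at 0 min only, where 3 counts set the limit of the share at 8.11% and the exact interval reaches 9.49%. At 180 min only were 199 of 1351 gene-body summits (14.7%), 16 of 127 between convergent ends (12.6%) and 172 of 4314 promoter summits (3.99%).

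Part of that difference goes with strength. Among the weakest summits, with a -log10 q under 10, 56.8% of gene-body and 48.3% of promoter summits were at 0 min only, and at 180 min only 38.5% and 25.8%. With a -log10 q of 10 to 50, 27.1% of gene-body and 23.8% of promoter summits were at 0 min only, and with 100 to 200 the shares were 4.02% and 5.06%. Between 50 and 100 the order turned, with 10.4% (6.94 to 14.9%) in gene bodies and 19.8% (16.2 to 23.8%) in promoters. Sorted by relative height instead, gene bodies had the higher 0 min only share in every bin: 46.8% against 38.0% under 1.5, 24.1% against 21.9% from 1.5 to 2, 14.6% against 8.04% from 2 to 3 and 4.59% against 1.24% above. At 180 min the shares for a -log10 q of 10 to 50 were 14.2% and 8.96%. Along the gene, summits at 0 min only made up 27.2% of gene-body summits in the first 25% of the length, 20.5% from 25 to 50%, 25.8% from 50 to 75% and 22.0% in the rest. At 180 min only were 10.0% (7.0 to 13.7%) in the first 25% and 17.5% (14.2 to 21.3%) in the last.

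**Figure D2:**
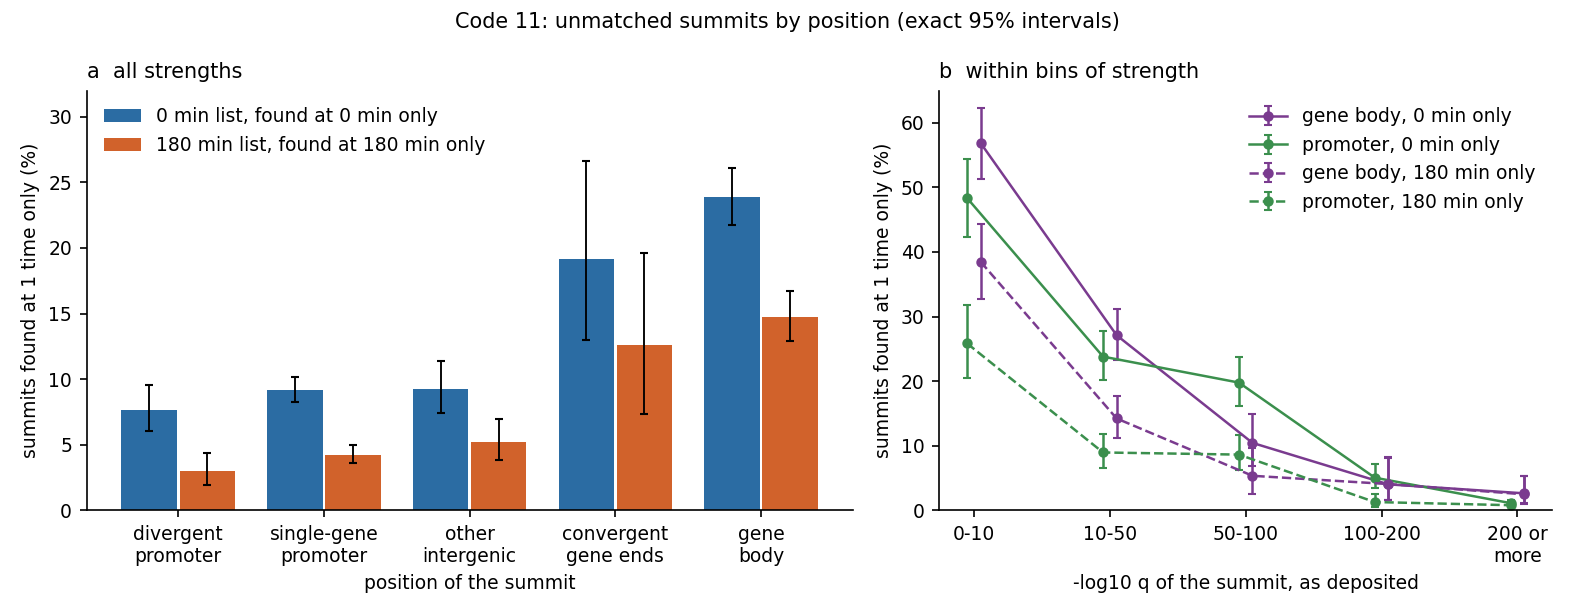
Share of code 11 summits found at 1 time only (vertical axes, percent), with exact 95% intervals. Panel a sorts summits by position: gene bodies stood at 23.9% at 0 min and 14.7% at 180 min. Panel b shows gene-body (purple) and promoter (green) summits by deposited -log10 q (horizontal axis), where gene bodies lie above promoters among the weakest summits and below them at 0 min in the 50 to 100 bin.

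Shares varied between the 16 chromosomes, and no difference was tested. The 0 min only share ran from 9.16% (interval 6.76 to 12.1%) on XIV to 16.9% (11.5 to 23.4%) on VI. On chromosome IV it was 104 of 917 (11.3%, interval 9.36 to 13.6%), against 12.4% on the others. At 180 min only, chromosome IV had 57 of 870 (6.55%) and the others 6.47%. Within 25 kb of CEN4, 2 of 37 summits were at 0 min only and 1 of 36 at 180 min only. Within 25 kb of a chromosome end the shares were 49 of 344 (14.2%) and 12 of 307 (3.91%).

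Among summits not covered by any region of the other list, the strongest at 0 min only was that of SGE1, a multidrug transporter gene, 132 bp upstream of its start at XVI 933902 (sacCer3, 1-based, as all positions here). Its relative height was 2.18 and its -log10 q 137. The promoters of RNH202, a subunit of ribonuclease H2, SNU56, of the U1 spliceosomal particle, PEX13, of peroxisomal import, and SSN3, the kinase of Mediator, stood between 120 and 108 with relative heights of 2.04 to 2.45. The divergent promoter of SCC4, the cohesin loader, and SPT15, the TATA-binding protein, had a relative height of 3.79 but a deposited fold over its local background of 1.70. It had a counterpart in neither code 8 list, whereas SGE1, RNH202, SNU56 and PEX13 had one in both. The group was completed by YDR239C, the shared promoter of YPR096C, LEC1 and SYT1, a summit between YBL111C and PAU9, and 1 inside YGR130C. Of these, the YPR096C and PAU9 summits, like that of SSN3, were in code 8 at 0 min alone. YDR239C was there at 180 min alone and YGR130C at both times. Over all 870 summits at 0 min only, 254 (29.2%) were in the 0 min list of code 8 alone.

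The strongest summits at 180 min only led to another set. An intergenic summit between AIP5 and IGD1 (VI 182116) had a relative height of 3.91 and a -log10 q of 176. XKS1, which encodes xylulokinase, followed at 3.69 and 164, with its summit 54 bp upstream of the start. A summit between the convergent ends of IMA3 and CSS1 had a -log10 q of 144, at a relative height of 2.33. The promoters of VBA4, HRD1, the ubiquitin ligase of endoplasmic reticulum quality control, ATG2, of autophagosome formation, AMS1, the vacuolar alpha-mannosidase, MLO1, CIT3, a mitochondrial citrate synthase, and KDX1 stood between 119 and 94.3. Of these 10 summits, 4 were also present at 180 min and not at 0 min in code 8, namely XKS1, AMS1, MLO1 and the 1 beside AIP5. HRD1 and CIT3 had a counterpart in neither code 8 list. VBA4, ATG2 and KDX1 had one in both, and the summit between IMA3 and CSS1 had one at 0 min alone. Over all 431 summits at 180 min only, 90 (20.9%) were in the 180 min list of code 8 alone.

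The tallest unmatched summits, picked after their values were seen, lay inside regions called at both times. As a group, the summits inside such regions were not taller, with a median relative height of 1.66 at 0 min against 1.77 in regions absent at 180 min, and of 1.65 at 180 min against 1.78 in regions absent at 0 min. For 319 of the 365 at 0 min only and 180 of the 231 at 180 min only, the nearest summit of the other list was itself matched, and for the other 46 and 51 it was unmatched too. The promoter of PYC1, pyruvate carboxylase, had a 0 min summit of relative height 10.75 and its nearest 180 min summit, a matched one, 72 bp away. The 0 min summit in YGR050C's promoter (10.69) had its nearest neighbour, also matched, at 124 bp. At the divergent promoter of ELO1, a fatty acid elongase, and CDC6, the replication origin loader, a 0 min summit of 6.44 and a 180 min summit of 7.28 lay 53 bp apart, just past the limit for a match. At 180 min only, a summit inside YDR215C reached 10.00, with a matched 0 min summit at 137 bp, and 1 between HXT7 and HXT6, a pair of nearly identical hexose transporter genes, reached 7.59, with a matched 0 min summit at 106 bp.

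The number of body summits per gene went down more often than up, as did summits of the whole list. In all, 870 summits were at 0 min only and 431 at 180 min only, and the 0 min list is deeper and longer. In promoters these numbers were 400 and 172, and in gene bodies 362 and 199. There were 1057 genes with a gene-body summit at 0 min and 973 at 180 min. Of all genes with 1 at either time, 309 had fewer at 180 min, 180 had more and 681 as many. At least 3 fewer were found in 9 genes and at least 3 more in 1. HSP78, which encodes a mitochondrial disaggregase (IV 971808 to 974243), went from 4 to 0. HSP82, an Hsp90 chaperone (XVI 96496 to 98625), QCR2, of respiratory complex III, TSL1, of the trehalose synthase complex (XIII 70624 to 73920), and TUB4, gamma-tubulin, each went from 3 to 0. ADE57, of purine synthesis, went from 5 to 1, PDC1, pyruvate decarboxylase (XII 232390 to 234081), from 6 to 2, HSP30, a plasma membrane stress protein, from 4 to 1, and DIG1, an inhibitor of the mating transcription factor Ste12, from 5 to 2. In the other direction VVS1 (II 702589 to 704055) went from 3 to 7.

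The summits concerned were low, and in the 4 genes given here the promoter summit was present at both times. In HSP82 the 3 gene-body summits at 0 min had relative heights of 2.27, 2.16 and 2.08, at 254, 1342 and 1494 bp from the start. The HSP82 promoter summit stood at 6.68 at 0 min and 6.85 at 180 min, and the summit at the gene's far end, in the promoter of CIN2, at 5.07 and 4.68. In HSP78 the gene-body summits had 1.77, 1.56, 1.80 and 1.72, and its promoter 5.70 and 4.78. PDC1 had 4 gene-body summits from 1.85 to 2.46 at 0 min only, while its promoter summit stood at 4.44 and 4.87. In TSL1 the 3 summits, between 2766 and 3063 bp from the start, had 2.01 to 2.41, and its promoter 11.59 at 0 min and 13.14 at 180 min.

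TDH3, glyceraldehyde-3-phosphate dehydrogenase (VII 882812 to 883810), showed both kinds of change in 1 gene. Its summit at 131 bp was matched and had a pileup of 2806 at 0 min and 1525 at 180 min, a relative height of 4.66 and 2.98. The summits at 610 and 865 bp, of 3.14 and 3.11, were at 0 min only. Its promoter summit, 319 bp upstream, was 18.49 at 0 min and 20.96 at 180 min. TDH3 and TDH2, like HSP82 and HSC82, are close paralogs, and nothing at hand says how reads that fit both copies were placed.

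**Figure D3:**
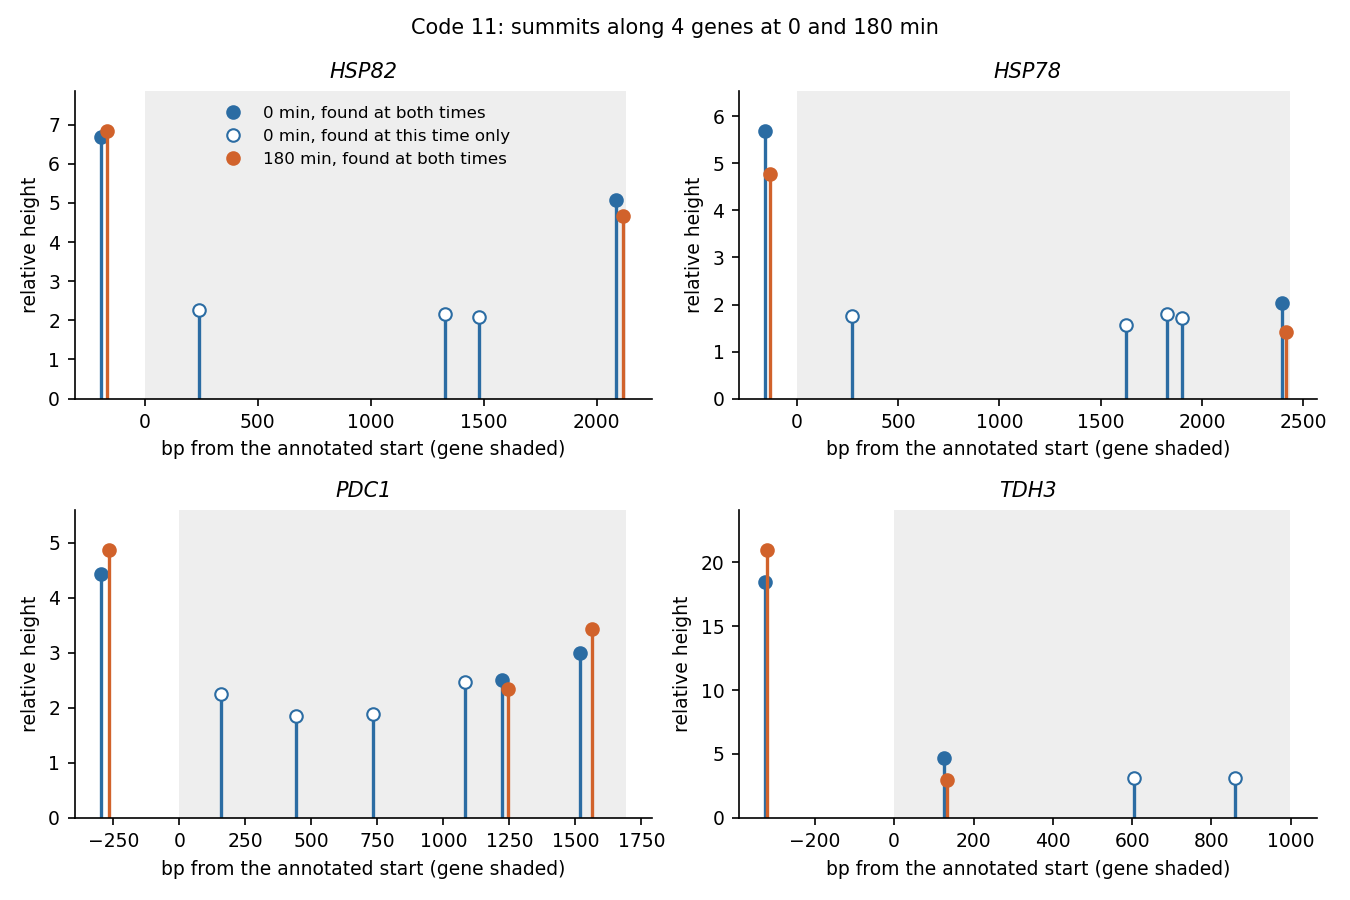
Code 11 summits along HSP82, HSP78, PDC1 and TDH3. The horizontal axes give the distance from the annotated start in bp with the gene shaded, and the vertical axes the relative height at 0 min (blue) and 180 min (orange). Open circles are summits found at 0 min only, and filled circles summits found at both times. The promoter summits are present at both times, and the open circles lie inside the genes at relative heights between 1.56 and 3.14.

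In code 8 the gene-body counts of most of these genes also went down. They went from 3 to 0 in HSP78, from 2 to 0 in TSL1, from 4 to 0 in HSP30, from 6 to 4 in PDC1 and from 3 to 2 in ADE57. HSP82 went from 2 to 3 there, TUB4 stayed at 3 and QCR2 had none at either time. The TDH3 summits at 610 and 864 bp were at 0 min only in code 8 as well, and its matched body summit had 4.42 and 3.35. In VVS1, code 8 went from 3 to 4.

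By gene list, the share of body summits at 0 min only was read against 24.0% (360 of 1502) over all protein-coding genes. In glycolysis and fermentation it was 15 of 28 (53.6%, interval 33.9 to 72.5%), in trehalose and glycogen metabolism 8 of 10 (interval 44.4 to 97.5%), in the proteasome 6 of 10 and in the respiratory chain and citric acid cycle 7 of 14. Remodellers and Mediator had 4 of 19, mitochondrial ribosomal proteins 3 of 19 and genes within 25 kb of a chromosome end 8 of 41. Heat shock and chaperone genes had 13 of 38 (34.2%, 19.6 to 51.4%) and targets of the general stress factors Msn2 and Msn4 10 of 27 (37.0%, 19.4 to 57.6%). The endoplasmic-reticulum degradation and ergosterol lists had 0 of 8 each, with an upper bound of 36.9% that lies above the 24.0%. PDC1 alone gave 4 of the 15 in glycolysis, and TSL1 3 of the 8 in trehalose and glycogen genes. The intervals treat summits of 1 gene as independent, so they are likely too narrow and do not set a list apart. At 180 min only, read against 14.5% (194 of 1334), were 4 of 6 body summits in trehalose and glycogen genes, 7 of 24 in the general stress list, 3 of 16 in glycolysis and 5 of 30 in heat shock genes. In code 8 the shares were 8 of 24 for glycolysis, 17 of 46 for heat shock and 4 of 8 for trehalose and glycogen, against 26.5% over all coding genes. The lists share members, and the general stress list includes TSL1 and SSA4.

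Promoter summits at 0 min only were read against 9.07% over all protein-coding genes. General transcription machinery had 8 of 42 (19.0%), with SPT15, TAF2, a subunit of TFIID, and TFB3, of TFIIH, leading, all in regions absent at 180 min and with relative heights of 3.79, 1.93 and 2.3. The SPT15 and TFB3 summits also lie in the promoters of SCC4 and PFA5. In code 8 this list had 2 of 42, against 8.38% over all protein-coding genes. Mitotic exit and early G1 genes had 4 of 15, led by CDC6, DSE1, a daughter-cell gene (2.10), and MCM6, of the replicative helicase (2.28). Remodellers and Mediator had 6 of 46, led by RSC3, of the RSC remodeller (2.31), SSN3 and NPL6, also of RSC (1.92). Ribosomal proteins of the large subunit had 5 of 89, tRNA genes 10 of 272 and the trehalose and glycogen genes 0 of 17. Of the 34 lists, 10 had no promoter summit at 0 min only and 9 had none at 180 min only. At 180 min only, read against 3.98% (161 of 4047), the general stress list had 2 of 17, XKS1 and AMS1, the glucose-repressed list 2 of 12, CIT3 and POX1, of peroxisomal fatty acid oxidation (1.31), and the cohesin, condensin and Smc5/6 list 2 of 15, SMC3, a cohesin subunit (2.02), and NSE1, of the Smc5/6 complex (1.82). Heat shock and chaperone genes had 3 of 33. One is the SMC3 summit, which also lies in the promoter of JEM1 and counts in the G1/S list too. The others are the summit shared by EFB1 and SSA1 (9.25) and that shared by LST8 and SIS1 (8.13). Both lie inside a 0 min region, and the LST8 and SIS1 summit is 60 bp from an unmatched 0 min summit.

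Matched summits changed little in height. The median log2 ratio of relative height, 180 over 0 min, was 0.04 over the 6223 pairs, with an SD over summits of 0.13 and a median counting error of 0.049 per summit. At least 1.25-fold higher at 180 min were 72 summits (1.16%), and at least 1.25-fold lower 47 (0.755%). Gene bodies held 25 of the higher (2.17% of 1154) and 18 of the lower (1.56%), promoters 22 (0.533% of 4124) and 17 (0.412%). Code 8 had a median of -0.03, with 200 higher (3.33%) and 107 lower (1.78%) of 5998. In code 8 chromosome IV held 191 of the higher, among 832 summits, and 0 of the lower. The other 15 chromosomes of code 8 had 9 higher and 107 lower of 5166, and those of code 11 had 65 and 41 of 5410.

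The change went with height. Summits with a mean relative height under 1.5 had a median of -0.02, those between 3 and 4 of 0.03, and the 491 summits of 8 or more of 0.15. In code 8 the same bins ran from -0.05 to 0.02. Because of this slope, changes of single promoters are also given relative to a running median of 501 summits of the same mean height. By chromosome the medians lay between -0.01 on IX and 0.07 on XII, with 0.05 on chromosome IV and 0.03 on the other 15 together. Within 25 kb of CEN4 the median was -0.01 in 35 summits, against 0.01 in 392 near the other centromeres. In code 8 the corresponding values were 0.49 in 31 and -0.02 in 377.

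**Figure D4:**
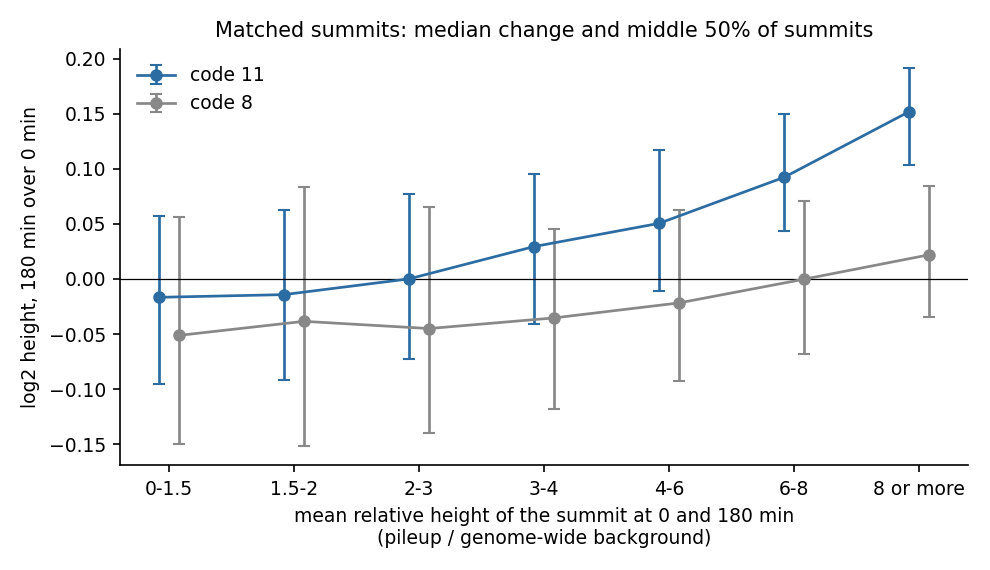
Median log2 ratio of relative height, 180 over 0 min (vertical axis), of matched summits in bins of mean relative height (horizontal axis), for code 11 (blue) and code 8 (grey). Whiskers span the middle 50% of summits. In code 11 the median went from -0.02 in the lowest bin to 0.15 in the highest, and in code 8 from -0.05 to 0.02.

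Among promoter summits with a relative height of at least 2 at both times, the largest decrease was at CPR6, which encodes a cyclophilin that works with Hsp90. Its summit, 356 bp upstream of the start at XII 573567, had a pileup of 2282 at 0 min and 1347 at 180 min, or a relative height of 3.79 and 2.63. The log2 ratio was -0.53 (counting SE 0.05), and -0.55 relative to summits of the same height. Code 8 had 3.61 and 2.60 at the same place. YER188W (4.84 and 3.58), the non-coding gene YNCL0036C (4.28 and 3.32), YHL008C (2.60 and 2.03), SEC8, of the exocyst (5.54 and 4.33), HRK1, a protein kinase (2.75 and 2.15), NDJ1, a meiotic telomere protein (3.95 and 3.15), and URB1, of large-subunit ribosome assembly (3.38 and 2.70), completed the 8, with log2 ratios down to -0.32. All 8 were also lower at 180 min in code 8. There the 4054 matched promoter summits had a median of -0.03, with the middle 50% from -0.11 to 0.06.

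The 8 promoters with the largest increases were less alike in the other code. The non-coding gene YNCM0007C had 2.43 at 0 min and 3.47 at 180 min, a log2 ratio of 0.51 (counting SE 0.05), against 2.44 and 2.42 in code 8. HOR7, a gene induced by high osmolarity, had 9.42 and 12.43, against 10.64 and 10.40 in code 8. At AGA1, the anchor of the a-agglutinin of mating, the values were 2.02 and 2.66, against 1.62 and 1.63. HOR7 and AGA1 each also had a taller promoter summit at 0 min only, inside a region still called at 180 min. These stood at 9.48, 300 bp upstream of the start of HOR7, and at 2.27, 248 bp upstream of that of AGA1. YGL034C (4.28 and 5.62), AAC1, a mitochondrial ADP/ATP carrier (7.37 and 9.57), YLR345W (3.52 and 4.52), PHO87, a phosphate transporter (3.31 and 4.25), and the shared promoter of RKM5 and TIS11 (3.86 and 4.95) followed. Of the 8, 4 were higher and 4 lower in code 8, where the median over all matched promoter summits was -0.03. Relative to summits of the same height, only HOR7, YLR345W and PHO87 were lower there. No test sets the codes apart, since each has 1 list per time.

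Gene-body summits were ranked in the same way, among those with a relative height of at least 2 at both times. XBP1, a stress-induced repressor, went from 4.12 to 2.46 near its end, the largest decrease, with a log2 ratio of -0.74 (counting SE 0.05), and TDH3 had -0.65. YGR130C (3.19 and 2.06), VPS45, of vacuolar sorting (3.16 and 2.16), UBP9, a ubiquitin protease (5.04 and 3.49), ADH1, alcohol dehydrogenase (3.43 and 2.43), GPD1, of glycerol synthesis (4.08 and 3.08), and SSA4, an inducible Hsp70 (3.99 and 3.04), followed. Of the 7 with a summit in code 8, 6 were lower there too. The exception was GPD1, on chromosome IV, with 3.68 at 0 min and 5.36 at 180 min in code 8. Over all protein-coding genes, 601 of 1016 matched gene-body summits were lower in code 8. The largest increases were at EFM3 (2.02 and 2.70), RKM5 (3.14 and 4.18), UBR2 (4.37 and 5.80), REX2 (3.89 and 5.15), AHA1, an Hsp90 co-chaperone (2.69 and 3.56), GTO3 (2.21 and 2.90), SFK1 (2.37 and 3.08) and NNR2 (3.31 and 4.29). Among these increases, 7 had a summit in code 8, and 5 of the 7 were higher there too. The 5 include AHA1, on chromosome IV, with 2.76 and 3.98 in code 8, and EFM3, with 2.15 and 2.20. Chromosome IV had a median log2 ratio of 0.21 in code 8, and the other 15 chromosomes -0.05. Among intergenic summits, a pair between YBR071W and HSP26, a small heat shock protein gene, went from 4.85 to 3.32 and from 3.89 to 2.77.

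SSA4 (V 364589 to 366517) was lower along its whole length. Its tallest promoter summit stood at 8.63 at 0 min and 7.72 at 180 min, the next at 6.99 and 5.89, and the gene-body summits at 117, 601, 1143 and 1382 bp at 5.05, 3.99, 3.66 and 3.41, then 3.96, 3.04, 3.16 and 2.74. The summit at its far end, in the promoter of RTT105, had 5.24 and 4.52. Each of these 7 summits was lower at 180 min. The same 7 in code 8 were lower as well, the tallest with 8.53 and 7.20.

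Of the heat shock and chaperone genes, taking the tallest matched promoter summit of each, 2 of 22 lay above the running median, with a list median of -0.06, against 1811 of 3769 (48.1%) over all protein-coding genes. CPR6 (-0.55), HSP78 (-0.31), SSA4 (-0.28) and SIS1, an Hsp40 (-0.23), were the lowest, and only SSB2 (0.07) and HSP60 (0.01) were above. Of the 22, 9 lay within 1 counting SE of the running median, 10 lay more than 2 counting SE below it and 0 above it by as much. Changes beyond 2 counting SE were common: measured without the running median, 39.5% of all 4124 matched promoter summits had 1, in either direction. As measured, without that reference, 13 of the 22 were higher at 180 min and the list's median was 0.01, so the position of the list rests on the reference. In code 8, 11 of 21 lay above, with a median of 0.02. The tRNA genes had 65 of 212 above (30.7%, median -0.04), small nucleolar RNA genes 14 of 53 (26.4%) and genes within 25 kb of a chromosome end 36 of 112 (32.1%).

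Trehalose and glycogen genes had 11 of 15 promoters above the running median and a list median of 0.07. Shares of that size were also found in the general stress list (10 of 14), mitotic exit and early G1 genes (8 of 11), phosphate starvation (9 of 13) and endoplasmic-reticulum degradation (9 of 13), and low ones in general transcription machinery (7 of 27), the proteasome (9 of 32) and the cohesin, condensin and Smc5/6 list (2 of 11). The general stress list is not separate: among its 10, TPS1, TPS2, TSL1, NTH1, GSY2, PGM2 and GLC3 are the same summits as in the trehalose and glycogen list. GLC3, the glycogen branching enzyme, had 4.57 at 0 min and 5.56 at 180 min, GLG1, which primes glycogen, 3.43 and 4.04, and PGM2, phosphoglucomutase, 6.34 and 7.55. TPS1, trehalose-6-phosphate synthase, had 10.15 and 12.07. The same list held 7 of 16 above in code 8, with a median of -0.01. Of the pheromone and MATa genes 15 of 22 lay above (median 0.03), with AGA1 (0.40) and FUS3, the mating kinase (0.24), highest, and in code 8 it was 6 of 21 (median -0.07). Glycolytic promoters had 6 of 13 above, ribosomal protein genes of the large subunit 45 of 77 and of the small subunit 31 of 46. The genes beside CEN4 were close to level: RMD1 had 3.55 at 0 min and 3.48 at 180 min, and NTH1, a neutral trehalase, 4.13 and 4.33.

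**Figure D5:**
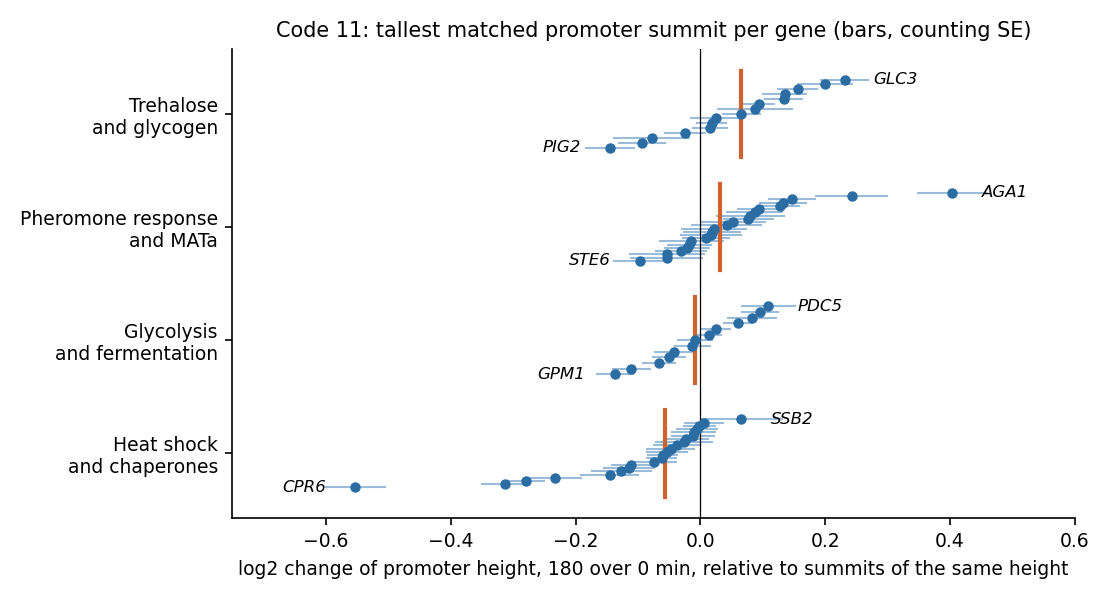
Log2 change of promoter height in code 11, 180 over 0 min, relative to summits of the same height (horizontal axis), for the tallest matched promoter summit of each gene in 4 lists (rows). Points are genes, pale bars counting SE and orange lines list medians. The medians were -0.06 for heat shock and chaperones and 0.07 for trehalose and glycogen, and the lowest gene was CPR6 at -0.55.

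Nearly all matched summits of code 11 were also present in code 8 at both times, and far fewer of the unmatched ones were. Of the 6223 matched summits, 5682 (91.3%) had a counterpart in both code 8 lists. Of the 870 at 0 min only, 191 (22.0%) had one in both code 8 lists, 254 (29.2%) in the 0 min list alone, 84 (9.66%) in the 180 min list alone and 341 (39.2%) in neither. The number that paired with a code 8 summit that was itself at 0 min only was 254 as well, 29.2% of the 870 and 30.2% of the 840 of code 8. Of the 431 at 180 min only, 87 paired with a code 8 summit that was itself at 180 min only, 20.2% of the 431 and 14.7% of the 590, and 198 (45.9%) had a counterpart in neither list.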

How the data were processed

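ATAC-seq peak lists were used, 1 per strain code and time. Per the submitters' processing notes, Bowtie2 2.3.4.3, SAMtools, Picard, HOMER and MACS2 2.2.4 were used with the sacCer3 build. Which tool served which step, a shift of reads for the Tn5 cut and pooling of experiments are not given in these sources. The deposited lists give per sub-peak a score, which equals 10 times its -log10 p, truncated. They also give the authors' fold enrichment over local background, a linear ratio, and -log10 of the p-value and q-value as deposited. The number of reads is unknown.

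Summits were matched as mutual nearest within 50 bp. The pileup and local background were solved from the fold, taken as (pileup + 1)/(background + 1), and the Poisson p. Of the recovered pileups of code 11, 99.1% and 99.6% were whole within 0.05. Matching and recovery were tested on simulated data. Counting SE treats pileups as Poisson counts, so they cover counting error only. Genes came from the RefSeq gene table of assembly R64 (6431 genes), with symbols from the same table. Python 3.11.15, numpy 2.4.6, pandas 2.3.3 and scipy 1.17.1 were used.

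The members and the 34 gene lists were chosen with earlier results of these data known. Named genes follow a rule: the 10 highest -log10 q per direction outside regions of the other list, the 8 promoters per direction with the largest height change and a relative height of at least 2 at both times, up to 3 members per list, the strongest of each position class, and RMD1 and NTH1. The gene-body, intergenic and inside-region examples, the genes drawn along their length and the division by strength were chosen after values were seen. Other matching distances, filters, windows and list lengths were tried, but leaving out a replicate was not possible.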

Additional observations from a re-analysis of the deposited data

Results flagged for a closer look

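Code 11 and code 8 moved in opposite directions in a few respects, none of which was tested, since each code has 1 list per time. The median log2 change of relative height over all matched summits was 0.0357 in code 11 and -0.0273 in code 8. Both are smaller than the SD over summits, 0.13 and 0.16.

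Some summits changed their call in opposite directions. Of the code 11 summits at 0 min only, 87 paired with a code 8 summit at 180 min only, and 18 of these 87 were on chromosome IV. That chromosome held 206 of the 590 code 8 summits at 180 min only and 104 of the 870 code 11 summits at 0 min only. Of the code 11 summits at 180 min only, 61 paired with a code 8 summit at 0 min only. The strongest of the first kind were in the promoter of YGR050C, with a relative height of 10.69, and between LST8, a subunit of the TOR complexes, and SIS1, with 7.54. The strongest of the second kind was also between LST8 and SIS1, with 8.13. These LST8 and SIS1 summits, at XIV 619939 and 619879, lie 60 bp apart in 1 open region, just past the 50 bp limit, so that promoter counts in both directions.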

How the results depend on the processing

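Of 45 alternatives, 25 left a result within its interval or within 1.5 times its count, 17 moved it and 3 turned its sign. The share of 0 min summits matched (87.7%) was 85.9% within 25 bp, 90.7% for lists cut to equal length, 91.3% for a -log10 q of at least 50 and 91.9% with 1 summit per region. The 870 summits at 0 min only became 463 for a -log10 q of at least 50, 301 with 1 summit per region and 507 where no region of the other list may cover the summit. The 431 at 180 min only became 163, 224 and 200 under the same settings. The gene-body share of the 0 min only summits (41.6%) was 37.2% at equal length, 28.7% for a -log10 q of at least 50, 28.9% with 1 summit per region and 18.7% with promoters from 1000 bp upstream. The chromosome IV share (11.3%) was 8.12%, 7.23% and 6.33% under the first 3 of these. The whole list moved the same way, its matched share going from 87.7% to 90.7%, 91.3% and 91.9%. The median height change of gene-body minus promoter summits, -0.01 on the log2 scale, turned to 0.0191 for a -log10 q of at least 50, to 0.0220 with 1 summit per region and to 0.0152 relative to summits of the same height, the last chosen after seeing the data. The cause was not tested, other than that the first settings keep fewer summits.

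No paired analysis was possible because the lists carry no replicate number and nothing was tested. Leaving out a replicate was not run for the same reason. Scaling to the 180 min depth and leaving out chromosome IV, both chosen after seeing the data, moved none of the results. The first of these gave 842 and 437 unmatched summits.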
